A study of Homo sapiens with 5 samples.

Results

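Expression of NR3C1, which encodes the glucocorticoid receptor, and of 7 genes of its signalling was examined in human leukaemia cells recovered from the brain and the spleen of transplanted mice. The other members were FKBP4 and FKBP5, which encode cochaperones of the receptor, and TSC22D3, SGK1, KLF9, KLF13 and ZBTB16, which encode response genes or their close relatives. They were found by matching the Ensembl identifiers of the deposited human gene table to gene symbols, and all 8 were present among 65217 gene identifiers. For NR3C1, the 16 transcripts named in the transcript tables were read as well, out of 198457 human transcript names.

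The cells were REH, a human cell line of precursor B acute lymphoblastic leukaemia that carries the ETV6-RUNX1 fusion and is widely used as a glucocorticoid-resistant line. They were grown in NSG mice (NOD.Cg-PrkdcscidIl2rgtm1Wjl/SzJ) of 6 to 10 weeks, which lack mature lymphocytes of their own, and recovered from the leptomeninges or the spleen over a Ficoll gradient. Each library held the RNA of 5 mice pooled. The work was done on 3 occasions, which gave 3 brain libraries and, after the submitters dropped the last spleen pool for quality, 2 spleen libraries. The labels name no glucocorticoid treatment of the mice at either site, and all libraries come from 1 cell line.

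The glucocorticoid receptor is a transcription factor that waits in the cytoplasm in a complex with HSP90 and its cochaperones. On binding a glucocorticoid it moves to the nucleus and binds short palindromic DNA elements as a dimer, or acts through other factors. In lymphoid cells its activation arrests growth and triggers death through proteins of the BCL2 family, which is why glucocorticoids are a mainstay of treatment for lymphoblastic leukaemia.

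Library totals on human genes ran from 38387991 to 48764202 estimated counts. The share of estimated counts on mouse transcripts was 5.70%, 2.58% and 2.64% in brain replicates 1 to 3 and 6.33% and 8.87% in spleen replicates 1 and 2, so every brain library held less mouse signal than every spleen library. Of 9 precursor B cell markers, 8 exceeded 1 CPM (counts per 1000000 reads on human genes, scaled by the TMM method) in every library, with a summed level of 6560 to 6791 CPM in brain, against 6717 to 6838 in spleen. VPREB1, which encodes part of the surrogate light chain, was at 0 throughout, and CD79A and RAG1 passed the test between sites, in opposite directions. CD79A stood at 608.4, 754.3 and 720.9 CPM in brain, against 1018 and 1101 in spleen. RAG1 stood at 1627, 1683 and 1519 CPM in brain, against 1081 and 1121 in spleen. Markers of T cells, myeloid cells and erythroid cells each summed to at most 5.53 CPM in any library. The 4 neural and glial markers summed to 14.5 to 17.2 CPM in brain, against 11.3 to 11.4 in spleen, nearly all of it MBP, with SNAP25 at 0. The 4 endothelial and stromal markers summed to 11.8 to 19.4 CPM in brain, against 2.60 to 3.87 in spleen. Of these only PECAM1, which leukocytes also express, passed the test between sites, and the endothelial cadherin CDH5 stayed at or below 0.133 CPM.

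In cells from the brain, mRNA for the receptor itself and for 2 response genes, TSC22D3 and SGK1, was higher than in cells from the spleen. TSC22D3 was 2.18-fold and SGK1 2.80-fold higher, and NR3C1 1.47-fold. FKBP5, which encodes a cochaperone that restrains the receptor and is itself a glucocorticoid target, fell by 0.43 on the log2 scale. FKBP4, KLF9, KLF13 and ZBTB16 did not pass the test. Thus 3 of 8 members were called higher and 1 lower by edgeR's quasi-likelihood test at a Benjamini-Hochberg (BH) adjusted p of 0.05. Of the 20419 genes tested, 9.51% were called, 6.01% higher and 3.5% lower. The median log2 fold change (brain over spleen) of the 8 members was 0.35 and that of all tested genes 0.0066. For 3 members the brain libraries lay wholly above the spleen libraries and for 1 wholly below, and the sites overlapped for the other 4. Over all tested genes 23.3% lay wholly above and 19.5% wholly below.

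**Figure D1:**
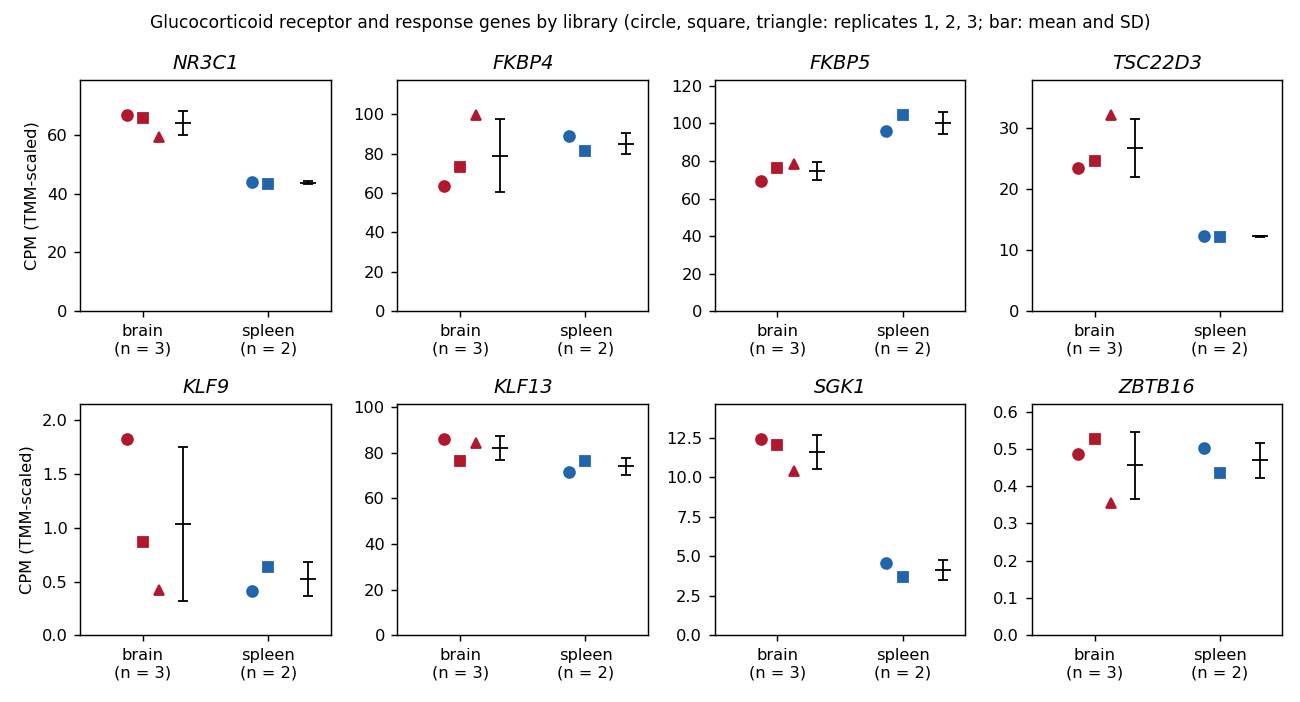
Level of each of the 8 genes in CPM (TMM-scaled, linear axes from 0) in the 3 brain and 2 spleen libraries, with the mean and SD of each site beside the points. NR3C1, TSC22D3 and SGK1 stood higher in all brain libraries and FKBP5 lower, while the sites overlapped for FKBP4, KLF9, KLF13 and ZBTB16.

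**Figure D2:**
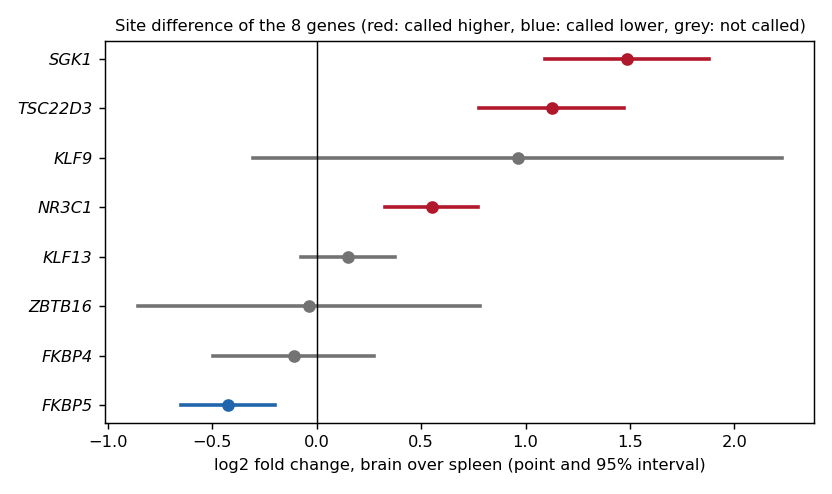
Log2 fold change of each gene, brain over spleen, with its 95% interval from the edgeR fit. The intervals of SGK1, TSC22D3, NR3C1 and FKBP5 exclude 0, and that of KLF9, with at most 71 counts in a library, spans -0.30 to 2.23.

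Levels of different genes were compared per transcript length, in TPM, rescaled so that the human transcripts of a library sum to 1000000. In brain the order of mean levels was FKBP4 (41.7 ± 6.36 TPM, SD, n = 3), FKBP5 (27.5 ± 2.20), KLF13 (26.8 ± 7.75), TSC22D3 (20.2 ± 3.24), NR3C1 (17.3 ± 2.08) and SGK1 (6.85 ± 0.570), with KLF9 (0.276 ± 0.186) and ZBTB16 (0.142 ± 0.0264) last. The neighbours FKBP5, KLF13, TSC22D3 and NR3C1 were each within their spread of the next, as were KLF9 and ZBTB16. In spleen the order was FKBP4 (39.9 ± 2.55 TPM, SD, n = 2), FKBP5 (37.4 ± 6.74), KLF13 (22.2 ± 4.11), NR3C1 (13.9 ± 1.68), TSC22D3 (9.41 ± 1.21) and SGK1 (2.68 ± 0.115), followed by ZBTB16 (0.171 ± 0.0268) and KLF9 (0.144 ± 0.0603). Here FKBP4 and FKBP5 were within their spread of each other, and so were ZBTB16 and KLF9. These levels sum all transcripts of a gene, short ones included. On the main transcripts alone, FKBP4-201 held 27.7 TPM in brain and 31.0 in spleen, and FKBP5-201 held 26.1 and 36.4. For KLF13-201 the means were 16.1 and 14.8 TPM, and for TSC22D3-206 they were 16.6 and 7.14. TSC22D3 mRNA exceeded receptor mRNA in all 3 brain libraries, by as little as 17.3 against 17.2 TPM in replicate 1, and lay below it in both spleen libraries. The receptor's mean level over the 5 libraries exceeded that of 62.7% of tested genes, SGK1's that of 45.7%, and those of KLF9 and ZBTB16 only that of 7.11% and 4.46%.

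NR3C1 (ENSG00000113580) lies on the minus strand of GRCh38 chromosome 5, from 143277931 to 143435512. Its level was 66.8, 65.8 and 59.3 CPM in brain replicates 1 to 3 and 44.1 and 43.3 in spleen replicates 1 and 2. The lowest brain library was well above both spleen libraries, which differed from each other by less than 1 CPM. The site means were 64.0 ± 4.05 CPM (SD, n = 3) and 43.7 ± 0.565 (n = 2), and the log2 fold change was 0.55 (SE 0.0985, edgeR BH-adjusted p = 0.0119). In bulk RNA, fewer cells with the transcript and less of it per cell cannot be told apart. Without brain replicate 1 the difference was 0.52 and no longer passed (edgeR BH-adjusted p = 0.0666). With the mouse share as a covariate, which follows the sites, it was 0.61 (edgeR BH-adjusted p = 0.195).

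The receptor's pre-mRNA is spliced to an alpha form, which binds hormone, and to a beta form with another C terminus, which does not. Of the 16 transcripts, 6 passed the filter on low counts. Protein lengths and forms given here are those of the reference annotation. Neither sequence changes in the cells' own NR3C1 nor receptor protein was measured. NR3C1-203, the representative transcript (777 amino acids, alpha), carried most of the signal, at 11.9, 12.2 and 11.2 TPM in brain, against 7.20 and 8.56 in spleen. All brain libraries lay above both spleen libraries, and the log2 fold change was 0.59 (SE 0.114, edgeR BH-adjusted p = 0.336 over 75118 transcripts). Transcript estimates spread more between replicates than gene counts (common biological coefficient of variation 0.552 against 0.148), and edgeR called 0 transcripts of any gene, with 6064 (8.07%) at an unadjusted p below 0.05. The DESeq2 Wald test, added after that outcome was seen, called 1861 of 81464 transcripts (2.28%), NR3C1-203 among them (DESeq2 adjusted p = 0.000116) and no other transcript of the gene.

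The 5 other tested transcripts each stayed under 3 TPM. NR3C1-213 has no defined coding sequence in the annotation and begins at a distal first exon (position 143434772). It was at 1.84, 2.94 and 1.60 TPM in brain, against 2.52 and 2.92 in spleen, so the sites overlapped (log2 fold change -0.34, SE 0.427). NR3C1-209 and NR3C1-202, which encode the same 777 residues from other starts, had log2 fold changes of 0.23 (SE 0.459) and 0.32. NR3C1-204 encodes the 778-residue form with an added residue in the DNA-binding region, known as gamma, and held 0.236, 0.343 and 0.119 TPM in brain, against 0.111 and 0.160 in spleen. Its log2 fold change was 0.79, and that of NR3C1-216, a fragment with an open 3′ end, was -0.57. By edgeR the highest and lowest adjusted p of these 5 were 0.962 and 0.816.

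NR3C1-205, the only listed transcript with a beta-type C terminus (742 amino acids), had 0 estimated counts in all 5 libraries. Against the 12651 counts on the gene, 0 would allow up to 0.0237%. That limit covers counting error only and holds only if every read could tell the forms apart. NR3C1-205 (143277936 to 143403329) lies within the span of NR3C1-203 (143277934 to 143403686). Reads that fit both can be assigned to either, so the share of the beta form was not bounded here. Transcripts that end in the full alpha C terminus made up 81.9%, 76.5% and 81.1% of the gene's TPM in brain, against 68.3% and 68.5% in spleen. Every brain share exceeded both spleen shares, with a mean difference of 11.4 percentage points, and the exact two-sided permutation test gave p = 0.2, the smallest that 3 against 2 libraries allow. Counted in estimated counts rather than TPM, where short transcripts weigh little, the shares were 98.4% and 97.2% and differed by 1.23 percentage points.

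**Figure D3:**
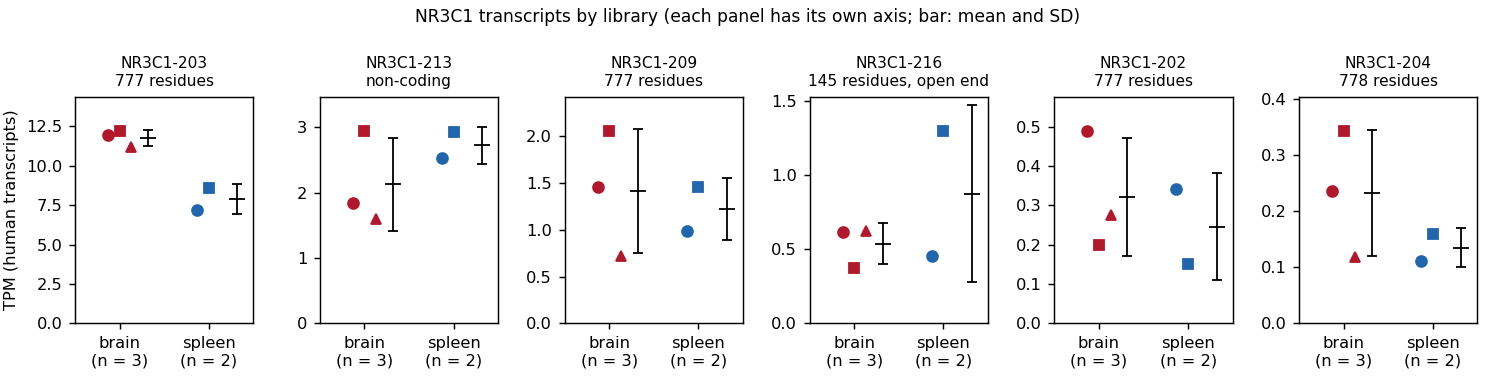
TPM of the 6 tested NR3C1 transcripts in each library, with the mean and SD of each site. Each panel has its own linear axis from 0. NR3C1-213, headed non-coding, is a transcript with no defined coding sequence. The main alpha transcript NR3C1-203 separates the sites (11.2 to 12.2 against 7.20 to 8.56 TPM), while the rare transcripts overlap between sites or rest on a few counts.

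Among all tested genes, the 3 whose centred log2 CPM profile over the 5 libraries lay nearest to that of NR3C1 were TRAPPC2, KLHL28 and DNMT3L-AS1. Their root mean square differences from it were 0.0239, 0.0243 and 0.0290. TRAPPC2, a subunit of a vesicle tethering complex, had 53.7, 53.2 and 47.5 CPM in brain, against 36.4 and 34.0 in spleen. This likeness is a description over 5 libraries, chosen from 20419 genes, and carries no test.

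The cochaperones followed. FKBP5 encodes FKBP51, an immunophilin that keeps the receptor in a state of low hormone affinity, and FKBP4 encodes FKBP52, which replaces it and links the complex to transport along microtubules. FKBP5 (ENSG00000096060, chromosome 6, 35573585 to 35728583, minus strand) stood at 69.2, 76.3 and 78.4 CPM in brain, against 96.0 and 104.5 in spleen. No brain library reached the lower spleen library. The means of 74.6 ± 4.84 (SD, n = 3) and 100.3 ± 6.02 CPM (n = 2) corresponded to a log2 difference of -0.43 (SE 0.0997, edgeR BH-adjusted p = 0.0323). This call was the least stable of the 4: its edgeR BH-adjusted p was 0.140 and 0.0834 when brain replicate 1 or 2 was left out, and 0.0545 and 0.107 when spleen replicate 1 or 2 was left out. With the mouse share as a covariate the difference was -0.50 (edgeR BH-adjusted p = 0.322). Nearly all FKBP5 signal lay on FKBP5-201 (457 amino acids), at 23.9, 26.9 and 27.3 TPM in brain, against 32.0 and 40.8 in spleen (log2 fold change -0.46, edgeR BH-adjusted p = 0.436).

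FKBP4 (ENSG00000004478, chromosome 12, 2794970 to 2805423, plus strand) stood at 63.8, 73.3 and 99.7 CPM in brain, against 89.0 and 81.4 in spleen. The brain libraries spanned both spleen values, replicate 3 above them and replicates 1 and 2 below. The log2 fold change was -0.11, with a 95% interval of -0.50 to 0.28 (edgeR BH-adjusted p = 0.752), which holds changes in both directions. Its main transcript FKBP4-201 (459 amino acids) likewise overlapped between sites, from 21.4 to 35.6 TPM in brain and at 29.7 and 32.2 in spleen. Annotated genes ITFG2-AS1 and ENSG00000258092 overlap FKBP4 on the other strand, and the strand setting of the counting is not given in the sources used here.

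Beside the counts of this and the later lists stand those of all tested genes, 6.01% called higher and 3.5% lower (median log2 fold change 0.0066). Across 14 receptor chaperones and cochaperones, DNAJB1 rose, PPP5C and FKBP5 fell, and 11 did not pass, with a median log2 fold change of -0.058. DNAJB1 encodes an HSP40 protein that loads clients onto HSP70, and is heat inducible. Its level was 132.1, 193.6 and 207.8 CPM in brain, against 90.2 and 71.2 in spleen (log2 fold change 1.14, SE 0.196, edgeR BH-adjusted p = 0.0102). With the mouse share as a covariate its difference was 0.43 (edgeR BH-adjusted p = 0.375). PPP5C encodes protein phosphatase 5, which sits in the receptor complex through the same kind of repeat domain as the FKBP proteins. It stood at 121.3, 121.3 and 118.1 CPM in brain, against 169.7 and 161.7 in spleen (log2 fold change -0.46, SE 0.0904, edgeR BH-adjusted p = 0.0170). It no longer passed on leaving out brain replicate 1 or 2 or spleen replicate 1 (edgeR BH-adjusted p = 0.0756, 0.0604 and 0.0637), and with FKBP5 lost as well 0 of the list fell in these fits. HSPA8, the constitutive HSP70 and the most abundant of the list, had a log2 difference of 0.043 (edgeR BH-adjusted p = 0.900).

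The response genes are those that the receptor, once bound to hormone, is known to induce. TSC22D3 encodes GILZ, the glucocorticoid-induced leucine zipper protein, and SGK1 the serum and glucocorticoid regulated kinase, which acts on ion channels and FOXO factors. KLF9 and KLF13 encode related zinc finger factors that bind GC-rich boxes in promoters, and ZBTB16 encodes PLZF, a transcriptional repressor. For the 3 members of this pathway that changed and are known targets, the DNA just before the start of the main transcript is shown 5′ to 3′. Whether these letters bear on the direction of change was not tested. The sequences come from the RefSeq promoter windows (GRCh38.p14, 300 bases around each start), limited to bases before every annotated exon. Capitals mark the GC box GGGCGG or its reverse complement, the kind of motif that KLF9 and KLF13 bind. The stretches lie at chrX:107717136-107717312 for TSC22D3, chr6:134174869-134175116 for SGK1 and chr6:35688943-35689165 for FKBP5, all on the minus strand.
TSC22D3: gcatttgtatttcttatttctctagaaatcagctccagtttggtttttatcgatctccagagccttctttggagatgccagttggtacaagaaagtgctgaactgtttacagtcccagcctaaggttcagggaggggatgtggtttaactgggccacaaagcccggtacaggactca
SGK1: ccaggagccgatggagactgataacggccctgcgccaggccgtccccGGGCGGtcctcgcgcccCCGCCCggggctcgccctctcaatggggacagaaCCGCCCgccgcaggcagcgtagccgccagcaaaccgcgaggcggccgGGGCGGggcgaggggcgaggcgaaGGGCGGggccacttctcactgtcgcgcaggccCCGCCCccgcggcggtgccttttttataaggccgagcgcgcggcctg
FKBP5: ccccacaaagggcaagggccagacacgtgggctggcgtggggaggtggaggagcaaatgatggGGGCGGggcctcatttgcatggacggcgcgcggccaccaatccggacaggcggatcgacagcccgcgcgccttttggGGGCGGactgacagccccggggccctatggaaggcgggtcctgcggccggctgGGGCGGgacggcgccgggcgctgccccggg

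The SGK1 stretch of 248 bases held 6 GC boxes at a GC content of 75.8%, and the FKBP5 stretch of 223 bases held 3 at 74.0%. The TSC22D3 stretch of 177 bases held 0 at 45.8%. A search of both strands for the full receptor element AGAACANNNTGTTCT, the looser palindrome GNACANNNTGTNC, the single arm AGAACA (which the full element contains) and the GC box covered 18 whole windows of 6 members, since FKBP4 and ZBTB16 had no entry. The full element was in 0 of 18 windows and 0.00285% of all 35116 windows, and the looser palindrome in 0 and 0.39%. The single arm was in 2 windows, 1 of FKBP5 and 1 of SGK1 at other starts than those printed, and in 14.8% of all windows. The GC box was in 11 of 18 windows and 45.0% of all. These are counts of starts, not of genes, and NR3C1 alone gave 7 of the 18, 5 of them with a GC box. No match says only that these letters are not within these 300 bases.

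SGK1 (ENSG00000118515, chromosome 6, 134169248 to 134318112, minus strand) changed most of the 8. It stood at 12.4, 12.0 and 10.4 CPM in brain, against 4.60 and 3.69 in spleen, so the lowest brain library held more than the sum of both spleen libraries. The means of 11.6 ± 1.08 (SD, n = 3) and 4.15 ± 0.645 CPM (n = 2) corresponded to a log2 difference of 1.49 (SE 0.172, edgeR BH-adjusted p = 0.00167). The main transcript SGK1-201 (431 amino acids), whose start the printed stretch precedes, was at 4.26, 3.37 and 4.48 TPM in brain, against 1.38 and 1.28 in spleen (log2 fold change 1.60, edgeR BH-adjusted p = 0.331). Transcripts with a retained intron held 35.5%, 51.6% and 20.7% of the gene's TPM in brain, against 33.6% and 29.3% in spleen, with no order by site. With the mouse share as a covariate the gene's difference was 1.46 (edgeR BH-adjusted p = 0.0819).

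TSC22D3 (ENSG00000157514, chromosome X, 107713221 to 107777342, minus strand) stood at 23.5, 24.7 and 32.2 CPM in brain, against 12.4 and 12.2 in spleen. Brain replicate 3 was the highest and all 3 brain libraries were far above the near-equal spleen libraries. The means of 26.8 ± 4.72 (SD, n = 3) and 12.3 ± 0.0913 CPM (n = 2) corresponded to a log2 difference of 1.13 (SE 0.153, edgeR BH-adjusted p = 0.00359). The transcript for the short, 134-residue GILZ protein, TSC22D3-206, made up most of it, at 14.1, 15.0 and 20.8 TPM in brain, against 6.26 and 8.03 in spleen (log2 fold change 1.25, edgeR BH-adjusted p = 0.349). The 200-residue long form TSC22D3-204, which starts at position 107775988, held at most 0.374 TPM in any library. NCBP2L overlaps the gene on the other strand. With the mouse share as a covariate the difference was 0.88 (edgeR BH-adjusted p = 0.189).

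KLF13 (ENSG00000169926, chromosome 15, 31326835 to 31435665, plus strand) stood at 85.9, 76.3 and 84.2 CPM in brain, against 71.5 and 76.5 in spleen. Brain replicate 2 lay just below spleen replicate 2, so the sites overlapped. Its log2 fold change was 0.15, with a 95% interval of -0.075 to 0.37 (edgeR BH-adjusted p = 0.390). The coding transcript KLF13-201 (288 amino acids) stayed between 12.8 and 16.8 TPM in all libraries. The short KLF13-204, with no defined coding sequence, ranged from 2.29 to 18.6 TPM and entered the gene's TPM given above.

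KLF9 (ENSG00000119138, chromosome 9, 70384604 to 70414657, minus strand) had few reads: 71, 43 and 19 counts in brain and 18 and 32 in spleen, or 1.82, 0.869 and 0.422 CPM against 0.410 and 0.635. Brain replicate 1 was the highest, and replicate 3 was about level with the lower spleen library. The log2 fold change of 0.96 had a 95% interval of -0.30 to 2.23 (edgeR BH-adjusted p = 0.324), and was 0.30 without brain replicate 1. The gene has 1 transcript in the tables, KLF9-201 (244 amino acids). The interval holds 0 and also the difference seen for TSC22D3.

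ZBTB16 (ENSG00000109906, chromosome 11, 114059041 to 114256765, plus strand) had 19, 26 and 16 counts in brain and 22 and 22 in spleen, the lowest level of the 8 genes in brain. The brain libraries spanned the spleen values. Its log2 fold change was -0.037 with a 95% interval of -0.86 to 0.78 (edgeR BH-adjusted p = 0.967). In the transcript tables its counts lay on ZBTB16-207, a retained-intron transcript, except for 1 count in spleen replicate 1. The 3 transcripts that encode the protein had 0 of 105 counts. By counting error alone this allows a share of up to 2.87%, and only if every read could tell the transcripts apart. ENSG00000256947, ENSG00000286463 and ENSG00000289230, genes with no symbol, overlap it on the other strand.

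Levels of 30 further genes known to be induced by glucocorticoids were also read. They are no measured response to hormone. The labels name no glucocorticoid treatment, and the exposure of the cells to hormone at either site was not measured. Of all tested genes 6.01% were called higher and 3.5% lower (median log2 fold change 0.0066). Of the 25 listed genes tested, 6 rose, 2 fell and 17 did not pass, with a median log2 fold change of 0.35. DDIT4, an inhibitor of mTORC1, rose most, from 19.4 and 18.2 CPM in spleen to 72.5, 93.7 and 68.1 in brain (log2 fold change 2.05, SE 0.153, edgeR BH-adjusted p = 0.000228). ANGPTL4, a secreted inhibitor of lipoprotein lipase, stood at 3.72, 4.37 and 3.58 CPM in brain, against 1.09 and 1.09 in spleen (log2 fold change 1.83, edgeR BH-adjusted p = 0.00214). Both genes are also known to respond to hypoxia. ZFP36L2, an mRNA decay factor of lymphocytes, rose from 207.3 and 196.3 CPM to 378.9, 397.1 and 373.9 (log2 fold change 0.93, edgeR BH-adjusted p = 0.00108).

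MT2A, a metallothionein, moved the other way, with 3.72, 6.53 and 5.04 CPM in brain, against 12.6 and 14.8 in spleen (log2 fold change -1.42, edgeR BH-adjusted p = 0.00672). Its reads may be shared with near-identical metallothionein genes. The other calls, named after their values were seen, were IRS2 (log2 fold change 0.55), BIRC3 (1.35) and RGS2 (0.89), which rose, and SLA (-2.38), which fell. IL7R, the interleukin-7 receptor chain and the most abundant of the list, had a log2 fold change of 0.19 (edgeR BH-adjusted p = 0.310). PER1 and DUSP1, both early targets of the receptor in many tissues and also named after their values were seen, had log2 fold changes of 0.26 and -0.17 (edgeR BH-adjusted p = 0.203 and 0.410). CEBPD, PFKFB2, SIK1, PDK4 and ANXA1 did not pass the filter on low counts, and each stayed under 1 CPM. Without brain replicate 1 the counts of the list were 3 risen and 1 fallen, and without spleen replicate 2 also 1 fell.

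**Figure D4:**
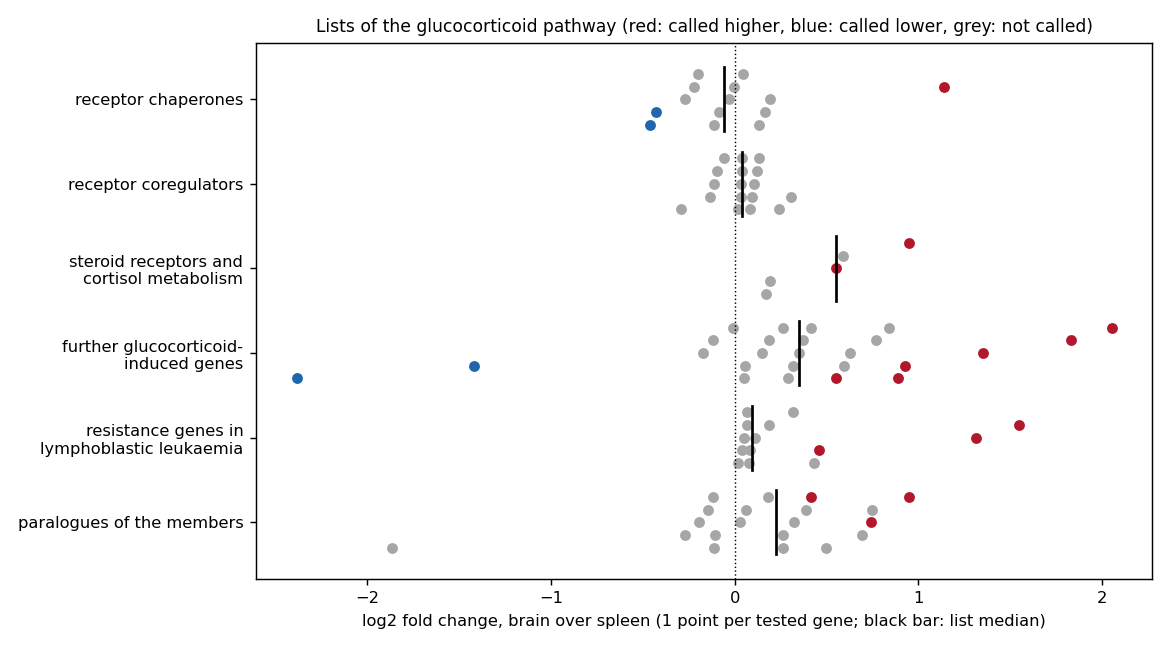
Log2 fold change, brain over spleen, of every tested gene in 6 lists of the glucocorticoid pathway, with the median of each list as a bar. The coregulators cluster near 0 (-0.29 to 0.30) with none called, while the further induced genes range from -2.38 to 2.05.

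None of 17 tested coregulators of the receptor passed by edgeR. At an unadjusted p of 0.05, edgeR gave 2 higher and 1 lower, and the DESeq2 Wald test called 0 higher and 1 lower, CARM1, named after its values were seen. The median log2 fold change was 0.037, and SMARCA4, the ATPase of a chromatin remodelling complex and the most abundant, had the same value (edgeR BH-adjusted p = 0.863). The list's whole range, -0.29 to 0.30, was narrower than the change of SGK1 or TSC22D3.

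Among steroid receptors and cortisol metabolism, 2 of 5 tested genes rose, NR3C1 and NR3C2. NR3C2 encodes the mineralocorticoid receptor, which also binds cortisol. It stood at 15.4, 15.8 and 16.5 CPM in brain, against 6.43 and 10.0 in spleen (log2 fold change 0.95, SE 0.186, edgeR BH-adjusted p = 0.0173). It no longer passed without brain replicate 1 or brain replicate 2 (edgeR BH-adjusted p = 0.0604 and 0.0564). HSD11B1 and HSD11B2, which regenerate and inactivate cortisol, and the drug exporter ABCB1 were too low to test, with ABCB1 at 0 counts in all libraries.

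Of 14 genes tied to glucocorticoid resistance in lymphoblastic leukaemia, 3 rose, 11 did not pass and 0 fell (0 lower also at an unadjusted edgeR p of 0.05 and by DESeq2). BMF, a BH3-only protein that promotes apoptosis, stood at 12.4, 13.0 and 11.6 CPM in brain, against 4.92 and 3.51 in spleen (log2 fold change 1.55, edgeR BH-adjusted p = 0.0017). BBC3, which encodes the BH3-only protein PUMA, stood at 5.05, 5.52 and 5.44 against 2.01 and 2.28 CPM (log2 fold change 1.31, edgeR BH-adjusted p = 0.00496). The antiapoptotic BCL2 rose as well, from 149.8 and 145.6 CPM in spleen to 205.6, 197.6 and 206.4 in brain (log2 fold change 0.46, edgeR BH-adjusted p = 0.0194). The BCL2 call was lost on leaving out brain replicate 1 or 2 or spleen replicate 1 or 2 (edgeR BH-adjusted p = 0.0819, 0.0572, 0.0592 and 0.0593). BCL2L11, which encodes BIM, the BH3-only protein best known as a glucocorticoid target, was named after its values were seen and had a log2 fold change of 0.050 (edgeR BH-adjusted p = 0.852), and the mismatch repair gene MSH6, the most abundant, 0.19.

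Among 20 tested relatives of the 8 genes, 3 rose and 17 did not pass, with a median log2 fold change of 0.22. By edgeR 0 fell, with 1 lower at an unadjusted p of 0.05, and the DESeq2 Wald test also called 1 lower. The edgeR count of fallen genes was 1 without spleen replicate 1 and 1 with no filter on low counts. Beside NR3C2, the genes that rose were SGK3, a kinase related to SGK1 (log2 fold change 0.74, edgeR BH-adjusted p = 0.0210), and TSC22D1, a relative of GILZ (0.41, edgeR BH-adjusted p = 0.0450). SGK3 did not pass without brain replicate 1, spleen replicate 1 or spleen replicate 2 (edgeR BH-adjusted p = 0.0747, 0.0696 and 0.0505). TSC22D1 did not pass without brain replicate 1, 2 or 3 or without spleen replicate 2 (edgeR BH-adjusted p = 0.115, 0.117, 0.102 and 0.191). With the replicate block TSC22D1 had 0.40 and did not pass (edgeR BH-adjusted p = 0.0735), which left 2 of the list risen, and with DESeq2 size factors in the edgeR fit its BH-adjusted p was 0.0587. Without brain replicate 1 none of the list rose, and without brain replicate 2 or spleen replicate 2 only 1 did. FKBP1A, the abundant small immunophilin, had a log2 fold change of -0.12.

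Of all tested genes 6.01% were called higher and 3.5% lower, with a median log2 fold change of 0.0066. Counting each gene once, 14 of 89 tested genes of the 6 lists rose and 4 fell, with a median of 0.13. The 89 include 3 of the members, with NR3C1 among those that rose and FKBP5 among those that fell. Without brain replicate 1 the counts were 6 and 1, and without brain replicate 2 or spleen replicate 2 the number that fell was 2. The mouse share and the PECAM1 level moved with the site in all libraries, and their part in these differences was not tested beyond the covariate values given. With the mouse share as a covariate 1 listed gene, DDIT4, was still called higher, and over all genes 114 were called higher and 11 lower against 1228 and 714.

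**Figure D5:**
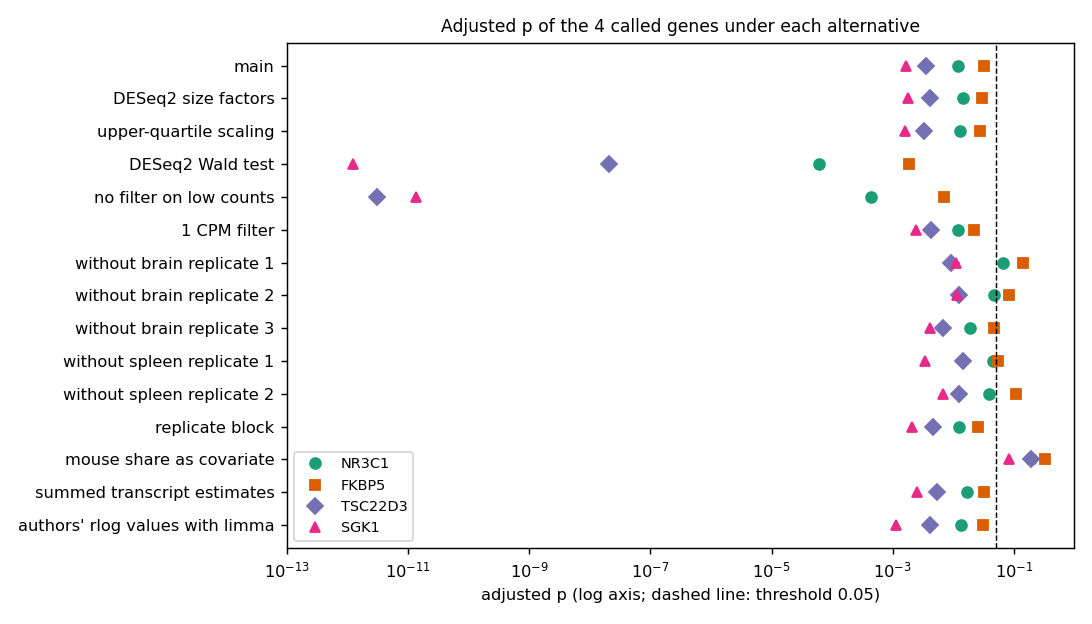
Adjusted p (log axis) of NR3C1, FKBP5, TSC22D3 and SGK1 under the fit reported here and 14 alternatives, with the threshold of 0.05 as a dashed line. TSC22D3 and SGK1 stay under it in 13 of 14 alternatives, NR3C1 in 12 and FKBP5 in 9, and all 4 miss it with the mouse share as a covariate.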

How the data were processed

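Per the submitters' processing notes, the tools were bcl2fastq 1.8.4, cutadapt 1.5, kallisto 0.42.4 and DESeq2 (no version given), with builds GRCh38 and GRCm38. The library kit was a stranded mRNA kit per the labels, and neither the order of steps nor the counting's strand setting is stated in the sources used here. The values of the gene table the authors deposited are estimated counts in whole numbers. The deposited transcript tables hold kallisto estimated counts and TPM over human and mouse transcripts together, per the file headers, and TPM was rescaled here to human transcripts. A second deposited gene table holds the authors' log2 (rlog) values, which served as an alternative. Each gene table has 1 column of no listed sample, which was not used.

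Identifiers were matched to GENCODE 44 (56322 of 65217, 86.4%). Counts were fitted in edgeR 4.0.16 (R 4.3.3) by quasi-likelihood with site as the only term, filterByExpr and TMM, and Benjamini-Hochberg adjustment ran over 20419 genes. The fit had 3 residual degrees of freedom. Transcript counts were rounded, transcripts of 1 name were summed, and 75118 were tested the same way. The code was tested on simulated data. Alternatives used DESeq2 1.42.0 and limma 3.58.1.

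Members, lists and tests were chosen with earlier results of these data known. Named are all 8 members, from each list up to 4 called genes with the smallest p and the most abundant gene, the 3 genes most like NR3C1, every tested NR3C1 transcript and the leading transcript of other members. The labels say that a replicate number marks an occasion, so a replicate block was an alternative. Same-numbered libraries correlated at -0.0251 (replicate 1) and 0.146 (replicate 2) in their deviations from the site means. Brain replicate 3, with no same-numbered spleen library, correlated at 0.147 with spleen replicate 1. With 2 spleen libraries each brain library has the same value with both signs, so these values cannot show whether the numbers pair. The codes of the spleen columns carry other numbers than the titles. P-values measure the spread between pools and occasions, not single animals.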

Additional observations from a re-analysis of the deposited data

How the results depend on the processing

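Over 14 alternatives, 2 or 3 members were called higher in 13 of them (2 without brain replicate 1), and 0 with the mouse share as a covariate, where the count called lower was also 0. Leaving out 1 library gave 0 to 1 members called lower, 6 to 14 listed genes called higher and 1 to 4 lower. Listed genes called lower came to 7 with the DESeq2 Wald test and 0 with the mouse share as a covariate, and those called higher to 1 with that covariate. NR3C1 transcripts called came to 1 with DESeq2, which was added after seeing the data. The cause of these shifts was not tested, beyond the smaller number of libraries where 1 was left out.

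The replicate block changed no member's call, and among the other named genes it ended that of TSC22D1 (0.40 on the log2 scale). Brain replicate 3 had no spleen library in its block, so it added nothing to the site difference in this fit. Under this pairing ZBTB16 turned to 0.12 and HSPA8 to -0.094 (log2), neither past the threshold. Other values that changed sign were not past it either, and over the fits that left out 1 library they ranged from -0.32 to 0.022 for FKBP4, -0.16 to 0.11 for ZBTB16 (0.055 without spleen replicate 1), -0.10 to 0.18 for HSPA8 (-0.091 without spleen replicate 2) and -0.012 to 0.076 for SMARCA4. The same ranges were -0.25 to 1.25 for NR3C1-202 (-0.10 without brain replicate 1), -0.094 to 0.52 for NR3C1-209 and -1.07 to 0.22 for NR3C1-216. HSPA8 stood at -0.17 with the mouse covariate. Depth limits KLF9, ZBTB16 and all transcript values: KLF9 ranged from 0.26 to 2.50 on the log2 scale over its 13 alternatives. With the authors' rlog values, which shrink low genes, SGK1 stood at 0.85 and TSC22D3 at 0.68.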
